A study of Mus musculus with 13 samples.

Results

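The cells described here are 999 barcodes of mouse embryos that were selected on Hand1 and on the near absence of markers of other tissues. They are called the Hand1 members below, and they were taken to be lateral plate and extraembryonic mesoderm. A barcode was a member when it held at least 2 Hand1 UMIs (unique molecular identifiers, 1 per captured transcript), Tnnt2 below 500 CPM (UMIs of a gene scaled to the usual common total of all UMIs), at most 2 UMIs of Meox1 plus Tcf15, at most 1 UMI of Pecam1 plus Cdh5 and at most 2 UMIs of Epcam. These genes mark cardiomyocytes (Tnnt2), somites (Meox1, Tcf15), endothelium (Pecam1, Cdh5) and epithelium (Epcam). The rule was applied to the 34605 barcodes with at least 2000 UMIs and 500 genes in 3 embryo libraries, and the series holds 76191 such barcodes in 10 matrices.

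The study profiled Wild-type C57Bl/6J mouse embryos and hearts by droplet single-cell RNA sequencing, with the cardiac conduction system as its subject. Embryos of E8.5 and E10.5 are used here, both untreated and both digested after the head and limbs were cut off. Whether this removed all cranial and limb bud mesenchyme was not tested. E8.5 is given by 1 library (replicate 2, since replicate 1 was not analysed here) and E10.5 by 2 libraries. The sample titles give both E10.5 libraries the same replicate number, and the replicate numbers used here come from the sample names in brackets after it. No source used here says how many embryos entered a library or whether the libraries came from separate litters, so p-values measure only the spread between these samples, which may be technical.

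Hand1 and its paralogue Hand2 encode basic helix-loop-helix transcription factors that bind DNA as dimers with E proteins. Hand1 is known from lateral plate mesoderm, the sheet beside the somites that gives rise to body wall, gut mesenchyme and heart. It is also known from the extraembryonic mesoderm of amnion, yolk sac and allantois, and from trophoblast giant cells. BMP signals, Gata factors and Foxf1 act in the same tissues, and Cdx and posterior Hox genes mark their caudal part.

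The E8.5 library held 274 members, which was 4.84% of its barcodes (exact 95% interval 4.30 to 5.44). At E10.5 there were 354 members in replicate 1, or 2.41% (2.17 to 2.68), and 371 in replicate 2, or 2.60% (2.34 to 2.87). The intervals of the E10.5 libraries overlap each other and lie below that of E8.5, and the single E8.5 library allows no test between the stages. Members had medians of 23448, 15969 and 14804 UMIs in the same order. With the rule applied after thinning each barcode to 2000 UMIs, the shares were 0.742% (0.536 to 1.00), 0.389% (0.294 to 0.503) and 0.469% (0.364 to 0.595), and the E8.5 interval then overlaps that of E10.5 replicate 2. Intervals cover counting error only. The E8.5 library shares 106 and 104 passing barcode sequences with the E10.5 libraries, which share 263 with each other, against 113, 110 and 284 expected for unrelated libraries, and no member barcode is shared. The doublet caller Scrublet called 3, 0 and 384 barcodes of these libraries at its own threshold, so it did not work for E8.5 and E10.5 replicate 1. In its place the barcodes of highest doublet score were taken, up to the 256, 1721 and 1632 that the barcode numbers predict. These high-score barcodes made up 5.47, 13.6 and 12.9% of members and 5.08, 14.1 and 13.6% of the comparison barcodes described below, and they are not doublet calls.

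The promoters of 3 genes that were high in members are shown because the members were selected on a transcription factor: Hand2, the paralogue of the selecting gene, Krt18, a keratin of simple epithelia, and Wnt2, a secreted ligand. Each is the 250 bases before the transcription start, 5′ to 3′ in the sense of the gene, from RefSeq on GRCm38.p6. Capitals mark CATCTG, an E-box sequence of the kind that HAND and E protein dimers can bind, and GATAA, the core of a GATA site, searched on both strands.
Hand2 (chr8:57320733-57320982, plus strand): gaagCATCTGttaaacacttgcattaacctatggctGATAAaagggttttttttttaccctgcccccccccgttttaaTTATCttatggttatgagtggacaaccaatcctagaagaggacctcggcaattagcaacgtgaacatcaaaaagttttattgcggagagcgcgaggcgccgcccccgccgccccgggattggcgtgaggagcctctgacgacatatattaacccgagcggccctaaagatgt
Krt18 (chr15:102027966-102028215, plus strand): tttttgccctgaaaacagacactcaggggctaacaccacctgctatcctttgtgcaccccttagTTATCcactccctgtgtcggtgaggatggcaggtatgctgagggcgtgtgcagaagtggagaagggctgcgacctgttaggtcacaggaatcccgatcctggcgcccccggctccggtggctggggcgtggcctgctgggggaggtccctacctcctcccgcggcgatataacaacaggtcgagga
Wnt2 (chr6:18030446-18030695, minus strand): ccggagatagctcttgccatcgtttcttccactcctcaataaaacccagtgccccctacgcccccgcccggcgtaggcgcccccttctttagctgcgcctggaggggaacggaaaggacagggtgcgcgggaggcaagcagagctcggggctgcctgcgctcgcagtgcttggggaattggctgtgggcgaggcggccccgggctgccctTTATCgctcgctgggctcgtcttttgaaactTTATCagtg
The Hand2 window holds 1 CATCTG and 2 GATAA, the Krt18 window 1 GATAA and the Wnt2 window 2 GATAA. Hand1 and Pitx1 have no entry in the sequence table. Of the 918 genes called higher in members at E10.5, 655 had a window and 12.52% of these held CATCTG, against 13.4% for genes called lower, 9.77% for all tested genes and 14.48% for all 27025 windows. GATAA was found in 16.3, 21.5, 14.3 and 23.0% of the same sets. Genes called higher and genes called lower both held more of these letters than the tested genes, and a match is not a bound site.

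The Hand1 threshold decides membership, so the levels on either side of it are a description. Among barcodes that met the other gates, the E8.5 library held 123 with 1 Hand1 UMI and 51 with 2. Just outside, Hand2 was at 22.6, Pitx1 at 49.0 and Krt18 at 71.9 CPM, and just inside they were at 45.4, 121 and 108 CPM. At E10.5 the barcodes with 1 UMI numbered 235 and 255 and those with 2 UMIs 93 and 98. There Hand2 was at 47.1 and 44.1 CPM just outside and 85.6 and 75.5 CPM just inside. Postn, which encodes the matrix protein periostin, was at 10.3 and 8.72 CPM and 47.1 and 24.2 CPM. For these genes at E10.5, barcodes with 1 UMI lay between mesodermal barcodes without Hand1 and members.
Genes differed in how they followed the Hand1 count within the members. At E8.5, Hand2 went from 45.4 CPM at 2 UMIs to 51.2 CPM at 6 or more, and Pitx1 from 121 to 116 CPM. Over the same range at E8.5, Postn went from 2.35 to 103 CPM, Col1a1 from 21.1 to 276 CPM and Pmp22 from 89.2 to 491 CPM. At E10.5 Postn reached 155 and 138 CPM and Col1a1 373 and 389 CPM at 6 or more UMIs, above every lower count. Hand2 went from 85.6 and 75.5 to 89.0 and 93.8 CPM in E10.5 replicates 1 and 2, and Pitx1 from 98.5 and 69.6 to 104.97 and 123 CPM, a wider difference in replicate 2 than in replicate 1. Median UMIs at 2 and at 6 or more Hand1 UMIs were 23769 and 23017 at E8.5, 14206 and 18856 in replicate 1 of E10.5, and 13502 and 16204 in replicate 2. The part of depth at E10.5 was not tested.

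**Figure D1:**
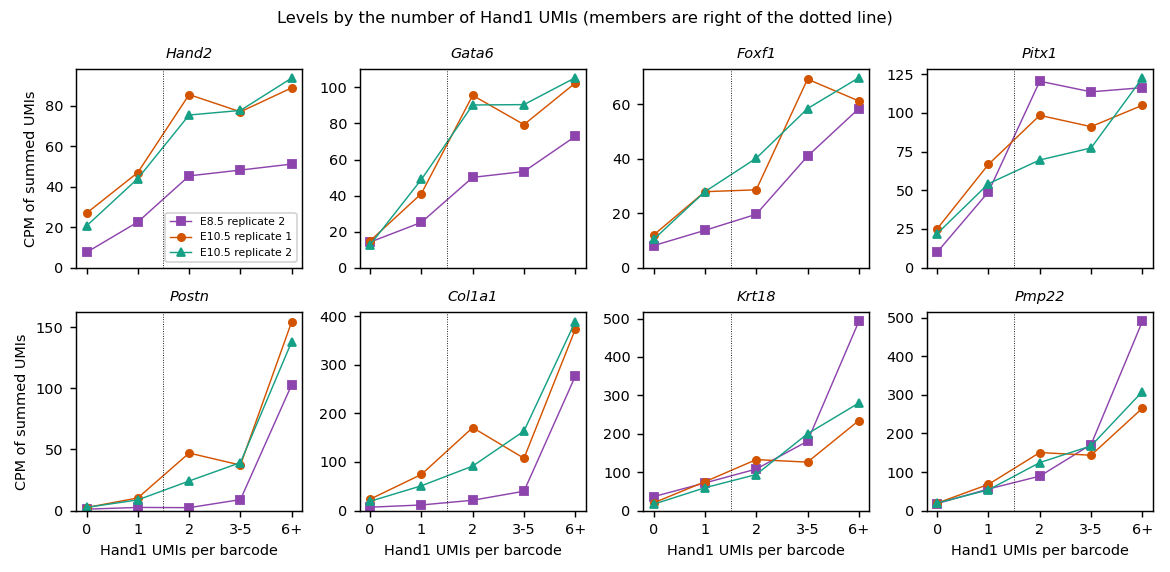
Level of 8 genes (vertical axis, CPM of summed UMIs) by the number of Hand1 UMIs per barcode (horizontal axis), 1 line per library; 0 stands for mesodermal barcodes without Hand1 and with little somite signal. At E8.5 Pitx1 was already at 121 CPM with 2 UMIs, while Postn and Col1a1 were highest at 6 or more UMIs in all 3 libraries.

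Members were compared with the other mesodermal barcodes of their library. These held at least 3 UMIs of Twist1, Prrx1, Prrx2, Pdgfra, Foxc1, Foxc2, Meox1 and Tcf15 together, no Hand1 UMI, and met the same gates on Tnnt2, Pecam1, Cdh5 and Epcam. They numbered 1733, 5234 and 5113, of which 616, 1749 and 1712 had more than 2 UMIs of the somite genes. Members were not asked for these mesodermal genes, and 63.1, 69.5 and 66.8% of them met that gate. Genes of either gate are given as values only. Twist1, a factor of mesenchyme, was at 37.7, 141 and 139 CPM in members and 42.0, 235 and 205 CPM in other mesodermal barcodes.
UMIs were summed per library and class. For E10.5 these sums entered the quasi-likelihood test of edgeR, and a gene was called when its Benjamini-Hochberg adjusted p was under 0.05 and its change at least 2-fold. Of 14566 genes, 918 were called higher in members (6.30%) and 377 lower (2.59%), and the median log2 fold change was -0.0026. At E8.5 there is no test, and genes were counted that differed at least 2-fold with at least 10 CPM on the higher side, which were 376 of 6562 on the higher side (5.73%) and 96 on the lower side (1.46%). A gene was considered there with at least 10 CPM in either class. Below that level in other mesodermal barcodes, a gene entered only through members and could not fall on the lower side. In sums over barcodes, more positive barcodes and more RNA per barcode cannot be told apart.

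Of the 4 marker genes that came with the label, Hand1 defined the members and was at 283, 301 and 293 CPM. The label and its markers were chosen with earlier results of these data known, so the marker levels are no independent check of it. Postn was at 50.8, 82.9 and 68.8 CPM in members and 0.888, 2.13 and 2.06 CPM in other mesodermal barcodes (log2 fold change at E10.5 5.20 ± 0.101 (SE), edgeR adjusted p = 3.31e-12). Col1a1, a chain of type I collagen, was at 144, 219 and 220.4 against 7.28, 19.5 and 15.9 CPM (3.66 ± 0.0744 (SE), edgeR adjusted p = 3.58e-12). Pitx1, a homeobox gene of the hindlimb field and posterior lateral plate, was at 116, 97.9 and 90.6 against 6.68, 17.8 and 15.3 CPM (2.53 ± 0.0764 (SE), edgeR adjusted p = 8.93e-11). All 3 were higher in members in every library. How many of all genes separate in this way was not counted, and 4545 of 14566 genes had an edgeR adjusted p under 0.05 at E10.5. Not every member carried these markers: a Postn UMI was found in 23.7, 28.8 and 28.6% of members and a Pitx1 UMI in 52.9, 37.0 and 36.9%. A group of 36 E10.5 members described below had Col1a1 at 2639 and Postn at 841 CPM, against 116 and 42.9 CPM in the remaining members. Likewise, a group of 22 E8.5 members had Col1a1 at 1109 and Postn at 523 CPM, against 71.8 and 15.2 CPM in the remaining members.
Shares with a UMI depend on depth and free RNA, so barcodes were thinned to 2000 UMIs, and neural barcodes, with medians of 28333, 16972 and 17430 UMIs, served as cells that should lack mesodermal genes. After thinning, Postn was found in 10.9, 12.1 and 13.2% of members and 0.0649, 0.170 and 0.227% of neural barcodes. Gata6 was found in 10.6, 13.8 and 18.6% against 0.195, 0.317 and 0.227%, and Hand2 in 8.39, 14.97 and 14.3% against 0.195, 0.341 and 0.252%. The member shares were above the neural background in each library. Hand1 itself had a UMI in 2.08, 1.63 and 1.82% of neural barcodes before thinning, and at least 2 UMIs in 0.584, 0.682 and 0.757%.

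**Figure D2:**
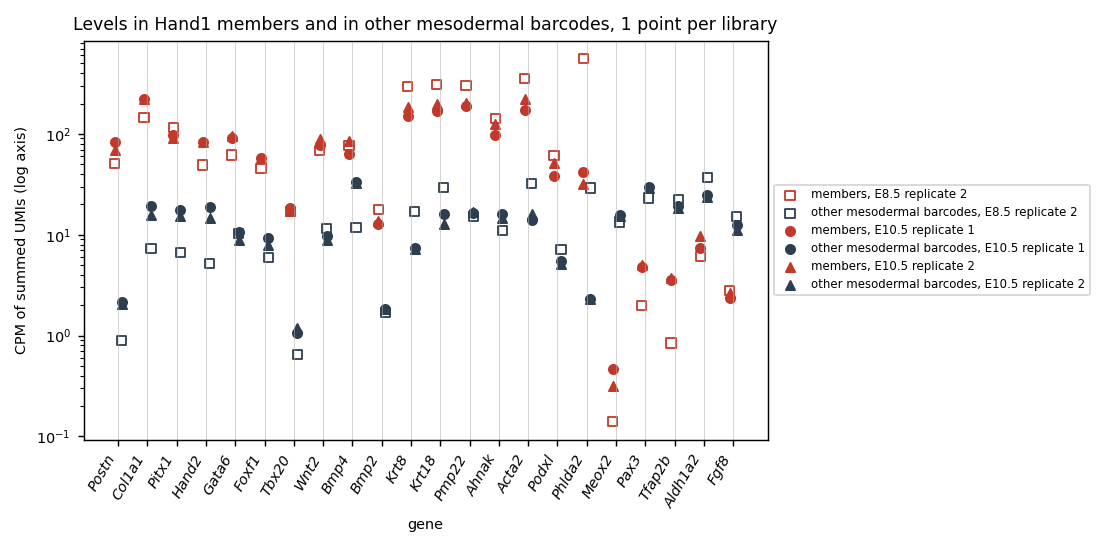
Level of 22 genes (vertical axis, CPM of summed UMIs on a log scale) in Hand1 members and other mesodermal barcodes, 1 point per library. In each library Postn, Col1a1, Pitx1 and Hand2 were higher in members, with Postn between 50.8 and 82.9 CPM in members.

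Lateral plate transcription factors were mostly higher in members: of 20 tested, 12 were called higher, 1 lower and 7 neither, with a median log2 fold change of 1.17. Hand2 was at 83.3 and 82.6 CPM in members and 18.7 and 14.7 CPM in other mesodermal barcodes at E10.5 (2.34 ± 0.102 (SE), edgeR adjusted p = 3.13e-09), and at 49.1 against 5.20 CPM at E8.5. Gata6, a zinc finger factor of cardiac and visceral mesoderm, was at 91.5 and 95.5 against 10.8 and 8.90 CPM (3.27 ± 0.0849 (SE), edgeR adjusted p = 2.30e-11). Foxf1, a forkhead factor of splanchnic and extraembryonic mesoderm, was at 57.3 and 57.3 against 9.26 and 7.996 CPM (2.75 ± 0.0863 (SE), edgeR adjusted p = 1.25e-10). For these 3 factors both member libraries lay above both comparison libraries, a separation that was not counted over all genes.
Tbx20, a T-box factor of heart and lateral plate, had the largest fold of the list, at 18.4 and 17.1 against 1.07 and 1.20 CPM (3.99). Gata4, Gata5, Msx2, Snai2, Zfpm1, Foxf2, Nkx2-5 and Isl1 were also called higher. Tbx1, a factor of pharyngeal mesoderm, was called lower, at 2.50 and 2.51 against 11.99 and 13.7 CPM. The Foxf2 call was lost under 5 alternatives and that of Isl1 under 1, which kept somite barcodes out of the comparison class (log2 fold change 0.90). At E8.5, 11 of 17 considered were past the fold on the higher side and 2 on the lower side. Gata6 was at 61.7 against 10.3 CPM there (ratio 5.96, exact 95% interval 5.23 to 6.78), and Tbx20 at 17.1 against 0.645 CPM (ratio 26.5, exact 95% interval 17.8 to 40.4). These intervals, and those of the E8.5 ratios below, cover counting error only and leave out differences between barcodes and between embryos.

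Limb and body wall factors were mixed: of 19 tested, 4 were called higher, 6 lower and 9 neither, with a median of 0.27. Tbx4 and Tbx5, T-box genes of hindlimb and forelimb fields, were called higher at 1.72 and 2.51 CPM and 14.4 and 10.99 CPM in members, and the Tbx5 call was lost under 5 alternatives, with 0.65 when somite barcodes were left out of the comparison and 0.30 after thinning. The genes called lower were Tbx15, Emx2, Lmx1b and Shox2, with Pax1 and Pax9 of the sclerotome. Meis1 and Meis2, cofactors of Hox proteins, were not called (0.66 and 0.35).

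Genes known from allantois, amnion and yolk sac mesoderm were mostly higher in members: of 23 tested, 17 were called higher, 3 lower and 3 neither, with a median of 2.66. At E8.5, 17 of 17 considered were past the fold on the higher side and 0 on the lower side. Postn, Krt19 and Cdx4 were at 0.888, 3.47 and 8.96 CPM in other mesodermal barcodes there. They entered only through members and could not be on the lower side. The list was chosen with earlier results of these data known, so this count is no independent check of the label. Postn, Tbx4, Hoxa10, Hoxa11, Hoxa13, Bmp4, Wnt2 and Podxl of this list also stand in other lists. Krt8 and Krt18, a keratin pair of simple epithelia, were at 296 and 310.1 CPM in members at E8.5, against 17.0 and 29.1 CPM. At E10.5 Krt8 was at 150.3 and 185 against 7.47 and 7.14 CPM (4.54 ± 0.0849 (SE), edgeR adjusted p = 3.02e-12) and Krt18 at 168 and 199 against 16.2 and 12.8 CPM. Pmp22, a membrane protein, was at 190.3 and 204 against 16.3 and 16.7 CPM (3.60 ± 0.0516 (SE), edgeR adjusted p = 1.77e-13). Ahnak, Podxl, Krt19 and Wnt2 were called with log2 fold changes of 2.88, 3.098, 3.37 and 3.18.
The list also holds imprinted genes of placental and embryonic growth. Phlda2, which restrains placental growth, was at 554 against 29.0 CPM at E8.5 (ratio 19.1, exact 95% interval 18.0 to 20.3) and at 42.0 and 32.2 against 2.30 and 2.32 CPM at E10.5 (4.02). H19, an imprinted long non-coding RNA, was at 1450.3, 1049 and 1079 CPM in members, against 305, 505 and 472 CPM (1.15 at E10.5). Igf2 and Dlk1 were called higher by 1.38 and 1.12. Each of H19 and Dlk1 lost its call under 1 alternative. The genes called lower were Cdx1, Cdx2 and Cdx4, caudal homeobox genes described with the Hox genes.

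**Figure D3:**
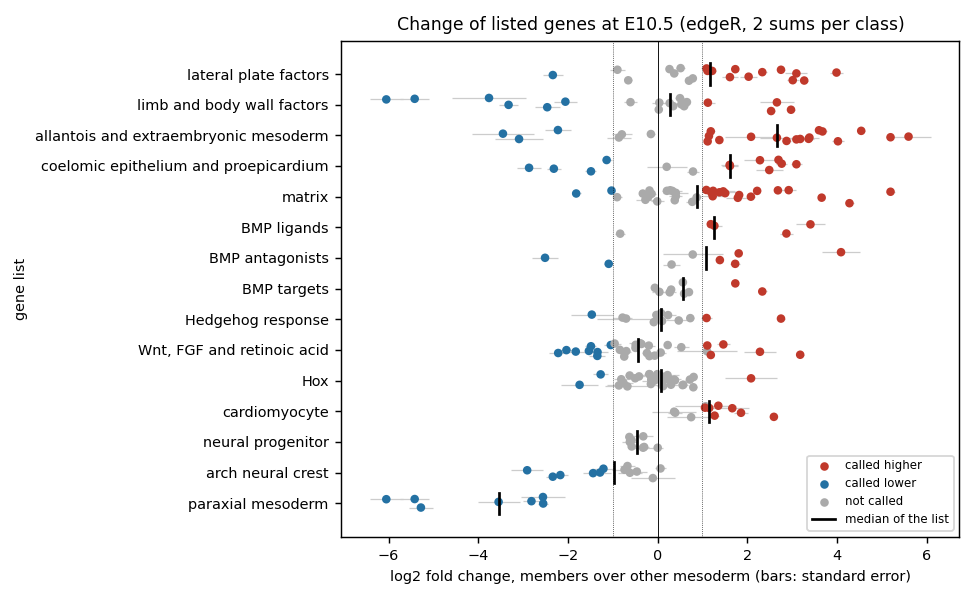
Log2 fold change of members over other mesodermal barcodes at E10.5 (horizontal axis) for the genes of the lists (vertical axis), coloured by call (higher, lower or neither). Bars are the SE derived from the edgeR test statistic. The list medians include 2.66 for allantois and extraembryonic mesoderm and -3.55 for paraxial mesoderm. Members were limited on the somite genes Meox1 and Tcf15, and other mesodermal barcodes could be admitted by them, so the paraxial median is no independent result.

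Genes of the coelomic epithelium and proepicardium, which line the body cavity and give rise to the outer layer of the heart, divided: of 13 tested, 7 were called higher, 4 lower and 2 neither. Upk3b, a uroplakin of mesothelium, was at 27.2 and 34.9 against 4.72 and 4.52 CPM (2.77 ± 0.121 (SE), edgeR adjusted p = 3.10e-09), and Mab21l2 at 65.2 and 70.2 against 10.6 and 10.6 CPM (2.70 ± 0.0680 (SE), edgeR adjusted p = 1.84e-11). Tcf21 was called higher (1.61), while Wt1, a defining factor of that epithelium, was at 12.3 and 15.4 against 8.21 and 8.06 CPM and was not called (0.79). Tbx18, Lhx2, Lhx9 and Aldh1a2 were called lower. Aldh1a2, which makes retinoic acid, was at 7.34 and 9.73 against 25.0 and 23.5 CPM, and at 6.07 against 37.2 CPM at E8.5. Its call was lost when somite barcodes were left out of the comparison (-0.99).
Matrix genes were higher in part: of 33 tested, 16 were called higher, 2 lower and 15 neither, with a median of 0.87. Among fibrillar collagens, Col1a2 was at 214 and 209 against 62.7 and 58.9 CPM (1.82) and Col5a2 at 40.3 and 35.5 against 9.13 and 9.04 CPM (2.08). Dcn and Lum, small proteoglycans that bind collagen fibrils, had log2 fold changes of 4.28 and 2.69, and Sparc, a collagen-binding glycoprotein, had 2.22. A group of 36 E10.5 members described below held Lum at 1105 CPM, against 32.1 CPM in the remaining members, so the Lum fold rests in part on that group. In other mesodermal barcodes Lum was at 11.2 and 12.9 CPM. Col2a1, of cartilage, and Col4a1, of basement membranes, were called lower (-1.81 and -1.03), and Col4a1 lost its call under 7 alternatives. Lama1, Lamb1 and Lamc1 (laminin chains) and Vcan were not called. Contractile genes of smooth muscle were called higher in 5 of 5 tested. Acta2 was at 174 and 223 against 14.02 and 15.98 CPM (3.75 ± 0.0983 (SE), edgeR adjusted p = 2.39e-11), and at 354 against 32.3 CPM at E8.5.

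BMP ligands, which pattern lateral plate and extraembryonic mesoderm, were higher in members: of 5 tested, 4 were called higher, 0 lower and 1 neither. Bmp4 was at 63.5 and 84.2 against 33.4 and 32.4 CPM at E10.5 (1.19 ± 0.0896 (SE), edgeR adjusted p = 6.61e-07), and at 76.5 against 11.7 CPM at E8.5. Its call was lost under 3 alternatives, with the lowest log2 fold change at 0.86. Bmp2 was at 12.8 and 13.8 against 1.84 and 1.85 CPM (2.87 ± 0.147 (SE), edgeR adjusted p = 1.55e-08), and Bmp5 and Gdf6 were called as well, with Bmp5 at 0.91 without the members of replicate 2. Bmp7 was not called (-0.83). For receptors and SMADs, of 10 tested, 1 was called higher, 1 lower and 8 neither. Smad9 was higher and Bmpr1b lower, while the main type I receptor Bmpr1a was at 44.0 and 43.3 against 37.8 and 36.7 CPM.
Inhibitors of the pathway were called in both directions. Bambi, a pseudoreceptor that is itself induced by BMP, was at 203 and 209 against 61.1 and 58.4 CPM (1.81 ± 0.0442 (SE), edgeR adjusted p = 1.82e-11). The inhibitory Smad6 and Smad7 were called higher, and the antagonists Grem1 and Fst lower. Fst lost its call under 3 alternatives. Of 9 target genes, 2 were called higher, Msx2 and Hand2. Id1, Id2 and Id3, direct targets often used as a readout, had log2 fold changes of 0.30, 0.57 and -0.059 and were not called.
Hedgehog genes were mostly not called: of 13 tested, 2 were called higher, 1 lower and 10 neither. Foxf1 and Foxf2 were higher, Foxl1 was lower (a call lost under 6 alternatives, with -0.63 without the members of replicate 1), and Ptch1, the receptor that is also a target, was at 48.9 and 50.9 against 32.2 and 28.8 CPM (0.73). For Wnt, FGF and retinoic acid signalling, of 30 tested, 5 were called higher, 8 lower and 17 neither, with a median of -0.44. Wnt2 was at 77.6 and 89.3 against 9.77 and 8.90 CPM, and at 68.0 against 11.4 CPM at E8.5. Wnt4, Sfrp1, Sfrp5 and Fgfr2 were the other genes called higher. The ligand Fgf8 and the FGF response genes Dusp6, Etv4, Spry1, Spry2 and Spry4 were called lower. The calls of Spry1, Spry2 and Spry4 were lost under 3, 2 and 1 alternatives, with Spry1 at -0.71 without the members of replicate 1. Dusp6 was at 16.54 and 15.7 against 46.8 and 47.9 CPM (-1.53 ± 0.0803 (SE), edgeR adjusted p = 2.04e-08). Tcf3, Tcf4 and Tcf12, which encode E proteins, the dimer partners of HAND factors, were not called (-0.20, -0.44 and -0.54).

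Hox genes, which pattern the body axis from head to tail, were on the higher side in members mainly at E8.5. There, 14 of 23 considered were past the fold on the higher side and 1 on the lower side. Hoxc10 was at 120.4 against 15.9 CPM (ratio 7.59, exact 95% interval 6.88 to 8.37), Hoxa10 at 29.3 against 3.35 CPM (ratio 8.77, exact 95% interval 7.11 to 10.8) and Hoxd10 at 11.3 against 0.988 CPM (ratio 11.4, exact 95% interval 7.91 to 16.6). At E10.5, of 36 tested, 1 was called higher, 2 lower and 33 neither. The gene called higher was Hoxa13, with a log2 fold change of 2.09, and its call was lost under 2 alternatives. Hoxc10 was then at 27.3 and 33.1 against 32.0 and 29.5 CPM and Hoxd11 at 6.24 and 4.55 against 13.8 and 12.6 CPM (-1.27 ± 0.161 (SE), edgeR adjusted p = 6.70e-05). The Hoxd11 call was lost under 2 alternatives. In members Hoxc10 was lower at E10.5 than at E8.5, and in the other barcodes it was higher. Hoxc8 and Hoxc9 were above the other barcodes at E10.5 without reaching 2-fold (0.80 and 0.81). The difference between the stages was not tested.
Cdx2 and Cdx4, which act upstream of posterior Hox genes, were at 39.1 and 46.8 CPM in members at E8.5, against 6.01 and 8.96 CPM. At E10.5 the members of each library held 2 UMIs of Cdx2 and 1 UMI of Cdx4, and the calls of both as lower were lost under 2 and 1 alternatives.

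By size of fold among called genes with at least 30 CPM, the leading genes on the higher side at E10.5 were Postn, Krt8, Dcn, Phlda2, Cryab, Acta2, Popdc2, Krt18, Col1a1, Rgs5, Pmp22, Nrk, Krt19, Dkk2 and Gata6. Cryab, a small heat shock protein, was at 61.8 and 100.2 against 5.21 and 5.33 CPM, and Dkk2, a Wnt modulator, at 50.6 and 58.2 against 5.24 and 5.75 CPM. On the lower side they included Foxd1, Zic1, Col2a1, Fam212a, Pcp4, Sox9, Dusp6, Tril and Ebf1. Foxd1, a forkhead factor, was at 5.78 and 4.55 against 44.5 and 40.6 CPM (-3.02 ± 0.130 (SE), edgeR adjusted p = 2.69e-09), and Sox9, a factor of cartilage and neural crest, at 23.6 and 31.2 against 90.6 and 90.0 CPM. With somite barcodes left out of the comparison, Pcp4 turned from -1.71 to 0.18.

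Markers of other tissues were read beside these results. Paraxial genes outside the gates were called lower in 7 of 7 tested. The rule itself limits the somite genes Meox1 and Tcf15 in members, and these genes can admit a barcode to the comparison class, so this is no independent result. Uncx turned to 0.22 with somite barcodes left out. For arch neural crest, of 12 tested, 0 were called higher, 6 lower and 6 neither, with Tfap2b at 3.59 and 3.77 against 19.4 and 18.4 CPM. For neural progenitor genes, of 8 tested, 0 were called higher, 0 lower and 8 neither (edgeR; 5 of them had an unadjusted p under 0.05, and DESeq2 called 0), with summed levels of 32.5, 121 and 103 CPM in members and 101, 153 and 155 CPM in other mesodermal barcodes. For neuronal genes, of 9 tested, 0 were called higher, 0 lower and 9 neither (edgeR; 2 of them had an unadjusted p under 0.05, and DESeq2 called 0), with sums of 15.5, 88.7 and 55.9 against 34.2, 68.5 and 77.1 CPM.
For cardiomyocyte genes, of 11 tested, 7 were called higher, 0 lower and 4 neither, although Tnnt2 was gated, and the sums were 287, 259 and 238 against 130.05, 90.3 and 85.8 CPM. Tnni1 was at 87.1 and 91.8 against 14.8 and 15.3 CPM (2.60 ± 0.0608 (SE), edgeR adjusted p = 1.45e-11). The calls of Myl7 and Actc1 were each lost under 4 alternatives. For endothelial genes, of 10 tested, 1 was called higher, 2 lower and 7 neither, with sums of 103, 81.9 and 90.0 against 94.2, 70.9 and 68.3 CPM. For endoderm genes, of 9 tested, 2 were called higher, 1 lower and 6 neither. Cdh1 and Afp were the higher ones, but Cdh1 was at 0.085 without the groups that hold Stmn2 or Tac2, described below, and Afp at -0.16 without the members of replicate 1. Of the trophoblast list Prl3d1, Prl2c2, Tpbpa, Gcm1 and Elf5 were too low to be tested, and of 5 tested, 2 were called higher, 1 lower and 2 neither. Gata3 and Krt7 were the higher ones, and Krt7 was at -1.14 without those groups and at 0.36 without the members of replicate 2. Tfap2c was lower, at 0.624 and 1.26 against 3.71 and 3.20 CPM, and lost its call under 2 alternatives. For intermediate mesoderm, of 8 tested, 2 were called higher, 2 lower and 4 neither. The part of these tissues in the results above was not tested.
For erythroid genes, of 10 tested, 0 were called higher, 0 lower and 10 neither (edgeR; 1 of them had an unadjusted p under 0.05, and DESeq2 called 0), with sums of 123, 3427 and 1231 CPM in members and 576, 1877 and 2409 CPM in other barcodes. At E10.5, 3 and 1 members had more than 10% globin UMIs. Without such barcodes Hbb-y, an embryonic globin, was at 48.1, 262 and 248.65 CPM in members and 50.1, 312 and 284 CPM in other mesodermal barcodes. For genes induced by dissociation, of 10 tested, 0 were called higher, 0 lower and 10 neither (edgeR; 6 of them had an unadjusted p under 0.05, and DESeq2 called 0), with sums of 155, 254 and 259 against 155, 233 and 235 CPM.

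Between the stages, both E10.5 libraries were at least 2-fold above E8.5 in 240 of 6775 genes considered in members (3.54%) and at least 2-fold below in 115 (1.70%). There is no test, and stage and library cannot be told apart. Hand2 was at 1.70 and 1.68 times its E8.5 level, Gata6 at 1.48 and 1.55 times and Foxf1 at 1.27 and 1.27 times, none past the fold. Of 17 extraembryonic genes considered, 1 was higher (Dlk1) and 4 were lower (Cdx2, Cdx4, Phlda2 and Rhox5). Phlda2 was at 0.0758 and 0.0581 times its E8.5 level in members and at 0.0793 and 0.0800 times in other mesodermal barcodes, so both classes were lower at E10.5. Among genes with at least 50 CPM at E8.5, which leaves out Cdx4, the largest decreases were those of Hoxaas3, Phlda2, Car4, Spin2c, Ifitm1, Plac1, Hoxb5os, Hoxc10, Cited1 and Slc39a1. Ifitm1, an interferon-induced membrane protein also known from early mesoderm, was at 555, 89.6 and 80.5 CPM in members and 228, 48.1 and 50.1 CPM in other mesodermal barcodes, and Plac1, a gene of placenta, at 51.5, 8.90 and 9.42 against 1.61, 0.758 and 0.913 CPM.
Among genes with at least 50 CPM at E10.5, the largest increases outside the globins were those of Aes, H1fx, Ckb, Ppp1r14b and Jund. The globins Hba-a1, Hba-a2, Hbb-y, Hba-x and Hbb-bh1 came before them by the mean fold of both E10.5 libraries, but these levels rest in large part on the 3 and 1 globin-rich members. Hba-a1 was at 14.96, 740.1 and 318 CPM in all members and at 14.96, 81.2 and 88.7 CPM without barcodes above 10% globin, and Hba-x at 26.7, 559 and 159.7 and at 26.7, 68.3 and 69.6 CPM. Below 50 CPM, the neuronal genes Elavl3 and Tubb3 were past the fold on the higher side as well, Elavl3 at 0.423, 10.3 and 10.7 CPM and Tubb3 at 1.98, 26.2 and 15.1 CPM in members, where the E8.5 value of Elavl3 rests on 3 UMIs. In other mesodermal barcodes Elavl3 was past the fold too, at 1.17, 10.9 and 12.9 CPM, while Tubb3, at 11.4, 17.9 and 22.6 CPM, was not. Aes, a corepressor of the Groucho family, was at 15.5, 125 and 125 against 12.51, 104 and 99.4 CPM, so both classes were higher at E10.5. Neural progenitor genes were past the fold on the higher side in 5 of 5 considered, with Sox2 at 6.91, 32.6 and 22.8 CPM. A gene was considered with at least 10 CPM at E8.5 or in both E10.5 libraries. Sox2 and Pax6, the latter at 4.52 CPM at E8.5, entered only through E10.5 and could not be on the lower side. A group of 51 E10.5 members led by neuronal genes, described below, held Sox2 at 129 CPM, against 13.1 CPM in the remaining members.

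**Figure D4:**
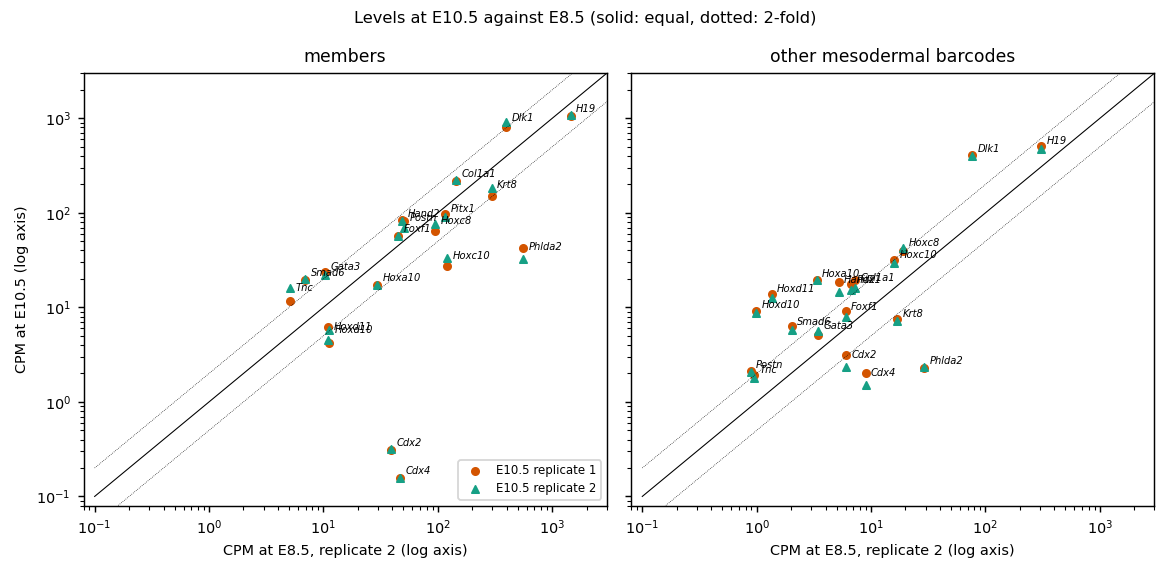
Level at E10.5 (vertical axis) against E8.5 (horizontal axis), both in CPM on log scales, in members and in other mesodermal barcodes, with lines for equality and for 2-fold. Phlda2 went from 554 to 42.0 and 32.2 CPM in members and from 29.0 to 2.30 and 2.32 CPM in other mesodermal barcodes, below the 2-fold line in both.

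The members were heterogeneous. They were clustered per stage without the genes of the rule, which gave 8 groups at E8.5 and 9 at E10.5. Mitochondrial and globin genes, and genes with a UMI in fewer than 5 members, were left out as well. Any other gene of these barcodes could enter the clustering, so the groups are a description with no test and are called by their leading genes. At E8.5 a group of 22 members was led by Postn, Dkk2, Serpinb6b, Lum and G0s2. It had the highest Hand1 level of the stage, 702 CPM, with Col1a1 at 1109, Postn at 523, Acta2 at 1832 and Hoxc10 at 2.01 CPM. A group of 50 was led by Plac1, Sgce, Cxcl14, Pcsk1n and Spin2c, with Phlda2 at 1455, Krt8 at 663 and Pitx1 at 199 CPM. A group of 37 was led by Hoxaas3, Cited1, Sct, Lmo2 and Cdx4 and had the lowest Hand1 level, 149 CPM. In it Hoxc10 was at 395, Cdx2 at 125 and Postn at 1.10 CPM. The 40 members led by Prrx1, Tulp3, Cdx1, 2610528A11Rik and Rrp12 had Hoxc10 at 185 and Cdx2 at 62.7 CPM, the next highest levels of both.
A further 25 members were led by Sfrp5, Myl4, Alcam, Cbfa2t3 and Tnni1, with Gata4 at 64.9, Tbx5 at 33.2, Wnt2 at 225 and Pitx1 at 4.53 CPM. Another 32 were led by Colec10, Saa2, Fam46a, Pcp4 and Nrp2, with Foxf1 at 121 and Lum at 253 CPM. The largest group, of 54, was led by Arg1, Nr2f1, Hlx, Hsd11b2 and Chaf1b, and 18.5% of it were high-score barcodes for doublets. The smallest, of 14, was led by Mt2, Tac2, Tmem54, Wnt6 and Slc2a3. It had Krt7 at 57.6 and Cdh1 at 36.0 CPM, while Hand2, Gata6 and Foxf1 were at 3.60 CPM each and Postn and Pitx1 at 0, which goes against the label for these barcodes.

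At E10.5 every group held members of both libraries, and the widest difference in share was 22.6 against 17.8%. The largest group, of 165, was led by Saa1, Nkx2-3, Gpr50, Saa2 and Hlx, with Foxf1 at 152 and Pitx1 at 7.24 CPM. A group of 146 led by Gm14226, Ppp2r2b, Irx3, Twist1 and Serpinf1 had the opposite order, with Foxf1 at 9.42 and Pitx1 at 201 CPM, and Wnt2 at 170.4 CPM. Nkx2-3 and Hlx are known from gut mesenchyme, and Twist1 from body wall and limb mesenchyme.
A group of 36 was led by S100a6, Lum, Col1a1, Cd59a and Serpinb6b, with Hand1 at 740.4, Col1a1 at 2639, Postn at 841 and Bmp2 at 182 CPM. Col1a1, Lum, Postn, Prss35, Serpinb6b and Wisp1 were among the 10 leading genes of this group and of the Postn-led group of E8.5. A group of 107 led by Mt1, Smim1, Alcam, Asb4 and Plagl1 had the highest Gata6 of the stage, 209 CPM, with Postn at 208 and Pitx1 at 188 CPM. A group of 65 was led by Myl4, Rbm24, Mef2c, Myl7 and Nkx2-5, genes of heart muscle and its precursors among them, with Isl1 at 110.0, Hand2 at 178 and Tbx5 at 52.7 CPM.
The remaining groups were of another kind. The 52 members led by 2610528A11Rik, Ddit4, Ndufa4l2, Nrn1 and Stc2 hold Ddit4 and Ndufa4l2, which respond to low oxygen. In 77 members led by Sct, Dgkk, Fli1, Dusp9 and Mecom, Dlx5 was at 18.2 and Dlx2 at 16.7 CPM, and 25.97% were high-score barcodes for doublets. In 51 members led by Stmn2, Tubb3, Elavl3, Pax6 and Elavl4, Sox2 was at 129 CPM, the median was 31850 UMIs and 86.3% were high-score barcodes. These neuronal leading genes go against the label. The smallest group, of 26, was led by Tac2, Plac8, Wnt6, Slc2a3 and Tmem54, with Krt7 at 95.6, Cdh1 at 60.8 and Hand2 at 2.17 CPM, and it also goes against the label. Without the groups that hold Stmn2 or Tac2 among their leading genes, 861 genes were called higher and 502 lower at E10.5, of which 762 and 312 were among the 918 and 377.

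**Figure D5:**
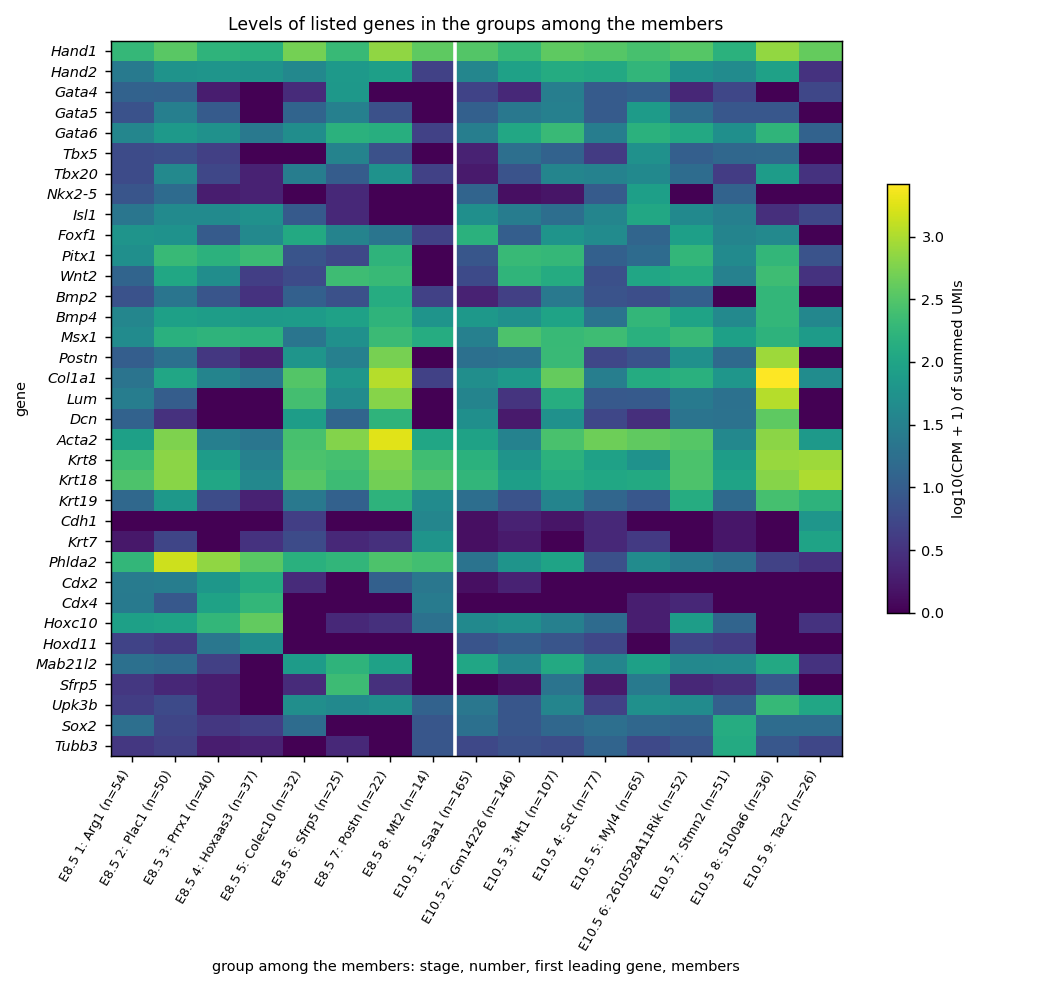
Level of 35 genes (vertical axis) in the groups of members at E8.5 and E10.5 (horizontal axis); colour gives log10(CPM + 1) of summed UMIs. Foxf1 and Pitx1 are high in different groups at E10.5, and Sox2 is highest in the group of 51 members.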

How the data were processed

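The deposited matrices hold UMI counts per gene and barcode, which the authors made with Cell Ranger (2.1.1 in the submitters' processing notes, 3.1.0 in the headers of the matrices used) on mm10, with 27998 genes. The labels name trypsin and v2 chemistry, and the study's methods name collagenase II and v3 chemistry. The 3 libraries held 151735273, 259041468 and 254118869 UMIs. The members and lists were chosen with earlier results of these data known.

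Barcodes with at least 2000 UMIs and 500 genes were kept. UMIs were summed per library and class. At E10.5 the 4 sums were fitted with edgeR 4.0.16 (R 4.3.3, TMM, filterByExpr, glmQLFit and glmQLFTest, Benjamini-Hochberg over all genes) without a block. Each SE was derived from that test, as the absolute log2 fold change divided by the square root of the F statistic. It is not a spread measured directly between the sums. The script was tested on simulated data for this comparison, over 14340 genes. There 95% of 2-fold and 100% of 4-fold changes had an edgeR adjusted p under 0.05 in the right direction. The 2-fold threshold of the calls was not applied to them. The changed genes were not of low count, and every gene had the same low dispersion, so these shares are not the power of the calls. E8.5 and the stages were compared without a test. Beside the listed genes, the text names, from the 15 higher and 10 lower genes of largest fold at E10.5 with at least 30 CPM, those reported here, the 10 genes of largest fold each way between stages with at least 50 CPM, and the 5 leading genes of each group. A few group levels and further leading genes were chosen after their values were seen.

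Neural barcodes held at least 3 UMIs of Sox1, Sox2 and Pax6. Shares were thinned to 2000 UMIs per barcode. Doublets were scored with Scrublet and kept, and an alternative removed the highest scores up to the number that the barcode number predicts (0.8% per 1000 barcodes). Groups came from Leiden clustering (scanpy 1.11.5, resolution 0.6, 20 components, 15 neighbours, 2000 variable genes). Alternatives were DESeq2 1.42.0, no filter, a library block, left-out sums, other Hand1 minimums, other comparison classes, a mitochondrial ceiling, doublet removal and thinning. Removal of globin-rich barcodes and of the groups that hold Stmn2 or Tac2 was added after seeing the data. The heart libraries were not used here, and some listed genes that entered the counts are not reported here.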

Additional observations from a re-analysis of the deposited data

Results flagged for a closer look

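For 6 listed genes the members lay at least 2-fold to one side of the other mesodermal barcodes at E8.5. The interval of each ratio, which covers counting error only, left out equality. In both E10.5 libraries the members lay past a smaller fixed fold to the other side. The difference between the stages was not tested, since E8.5 has 1 library. The ratio of members to other mesodermal barcodes at E8.5 was 6.5 for Cdx2, 5.23 for Cdx4, 3.04 for Hoxd1, 11.4 for Hoxd10 and 8.14 for Hoxd11. At E10.5 the folds in replicates 1 and 2 were 0.538 and 0.629 for Hoxd1, 0.464 and 0.663 for Hoxd10, and 0.451 and 0.361 for Hoxd11. Cdx2 and Cdx4 were called lower at E10.5, but the size of the fold is not given, since the members held 2 UMIs and 1 UMI of them per library. Mef2c, a factor of heart and muscle precursors, went the other way, with a ratio of 0.455 at E8.5 and folds of 1.55 and 1.27 at E10.5. The group of 65 E10.5 members led by Myl4 held Mef2c at 168 CPM, against 13.6 CPM in the remaining members. Other mesodermal barcodes were at 18.4 and 19.6 CPM, so the E10.5 folds above 1 rest on that group.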

How the results depend on the processing

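At E10.5, thinning to 2000 UMIs gave 404 genes higher and 122 lower, and DESeq2 gave 831 and 239. Leaving out 1 of the 4 sums gave 684 to 859 genes higher and 242 to 394 lower, where the lone sum of a class was assumed to vary like the other class. The lower count was 250 without the comparison sum of replicate 1 and 242 without that of replicate 2. Sums of the same library did not deviate together (correlation -0.029 over 14579 genes), and with the library as a replicate block 918 genes were higher and 395 lower, of which 906 and 365 were shared with the fit without the block. The other alternatives gave 752 to 1020 genes higher and 271 to 502 lower. Among single genes, the log2 fold change changed sign for Afp (-0.16 without members of replicate 1, and 3.13 without those of replicate 2), Krt7 (-1.14 without the groups that hold Stmn2 or Tac2), Pcp4 (0.18) and Uncx (0.22) without somite barcodes in the comparison, Shh (0.037 after thinning) and Sox10 (0.36 with at least 1 Hand1 UMI). Among other genes named as called, Lhx2, Sfrp1 and Snai2 lost their calls under 2 alternatives, of which Lhx2 did so without the members of replicate 2 (-0.99), and Aldh1a2, Bmpr1b, Cdx1, Emx2, Fgfr2, Gata4, Grem1, Lmx1b, Tbx15 and Tcf21 under 1. The share of members moved with the rule: in the order E8.5, E10.5 replicate 1 and replicate 2 it was 0.742, 0.389 and 0.469% when the rule was applied after thinning, 4.08, 1.53 and 1.65% with floors of 300 UMIs and 270 genes, 3.94, 1.78 and 1.91% with at least 3 Hand1 UMIs, and 7.02, 4.02 and 4.38% with at least 1. Thinning gave 696 genes higher and 362 lower at E8.5, and 424 higher and 288 lower between the stages. Between the stages, 1 E10.5 library alone gave 312 to 344 genes higher and 147 to 169 lower. The cause of these shifts was not tested.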
